A study of Homo sapiens with 6 samples.

Results

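The oxygen-sensing machinery of the hypoxia-inducible factors (HIFs) was followed in human HEK293 cells that had been grown beside cells producing reactive oxygen species (ROS). It was taken as 10 genes picked by name, out of 23686 genes in the count files. They are the alpha subunits HIF1A and EPAS1, the shared beta subunit ARNT, the asparaginyl hydroxylase HIF1AN, the prolyl hydroxylases EGLN1, EGLN2 and EGLN3, the ubiquitin ligase component VHL, and the HIF target genes BNIP3 and CA9. The rule itself uses no measured value, but the members were chosen with earlier results of these data known. Of the 10 genes, 8 had enough reads to be tested, and EGLN2 and CA9 did not.

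Messenger RNA was sequenced from 6 libraries of sorted GFP-positive HEK293 cells, an established line from human embryonic kidney, grown in high-glucose medium with serum. The co-culture group held 3 libraries of cells kept for 10 h with HEK293 cells that carried DAAO and were given 25 µM D-alanine. DAAO commonly stands for D-amino acid oxidase, which releases hydrogen peroxide as it oxidises D-amino acids. The control group held 3 libraries, titled Wt controls in the labels, of GFP-positive cells sorted in the same way, and the labels give GFP+ as the genotype of all 6 samples. All 6 samples carry the same treatment protocol, so the labels do not settle whether the controls received D-alanine or partner cells, and they name no clone and do not say whether replicates were separate cultures. P-values therefore measure the spread between these samples, which may be technical. The partner cells were HEK293 cells too, so any that passed the sort could not be recognised by genes typical of the line. Reads of the DAAO that they carried were not examined.

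In cells with enough oxygen, EGLN enzymes hydroxylate prolines of the HIF alpha subunits, VHL binds the hydroxylated protein, and the proteasome destroys it. HIF1AN hydroxylates an asparagine of the alpha subunit and so blocks its coactivators CREBBP and EP300. These enzymes need oxygen, iron and 2-oxoglutarate, and peroxide is known to affect them, so the pathway is switched mainly at the protein level. When the alpha subunit is stable it pairs with ARNT and raises genes of glycolysis, mitophagy, pH control and matrix assembly, among them EGLN1 and EGLN3 themselves. The libraries hold RNA only, and neither HIF protein nor its hydroxylation was measured. Bulk RNA also cannot tell fewer cells with a transcript from less of it in each cell.

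Gene-assigned reads ran from 19091085 to 36250314 per library. Levels are given as CPM, a gene's reads scaled to a common library total, and adjusted between libraries by trimmed means of M-values (TMM). All 8 genes listed as typical of HEK293 stood above 5 CPM in every library. Of 6 markers of other cells, PTPRC, CD3E, PECAM1, CDH5 and ALB stayed under 1 CPM everywhere, and the collagen gene COL1A1 stood at 31.0 to 44.4 CPM. The share of reads on the unexpected strand, as the median over 4907 genes that had 1000 or more reads per library, was 0.124% and 0.211% in co-culture libraries 2 and 3 and 1.57% to 1.75% in co-culture library 1 and the 3 controls. Within the class of libraries with more such reads, only co-culture library 1 faces the controls, and a fit that includes the class as a batch is quoted beside the results it touches. The class with fewer such reads held co-culture libraries only.

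None of the 8 tested members passed the test between co-culture and control. Across all 14582 tested genes, edgeR's quasi-likelihood test with Benjamini-Hochberg adjustment called 4.83% at an adjusted p under 0.05, and of the 8 members it called 0, with 1 (EPAS1) at an unadjusted p under 0.05, where 23.2% of all tested genes were. limma-voom and DESeq2 called 0 of the 8 as well. The members' log2 fold changes ran from -0.19 to 0.09, with a median of -0.03 against 0.00 over all tested genes. The groups did not overlap for 1 of the 8 members, where 29.3% of all tested genes showed no overlap. In all 8 members the spread of log2 CPM was larger among the controls than among the co-culture libraries, as it was in 68.8% of all tested genes.

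**Figure D1:**
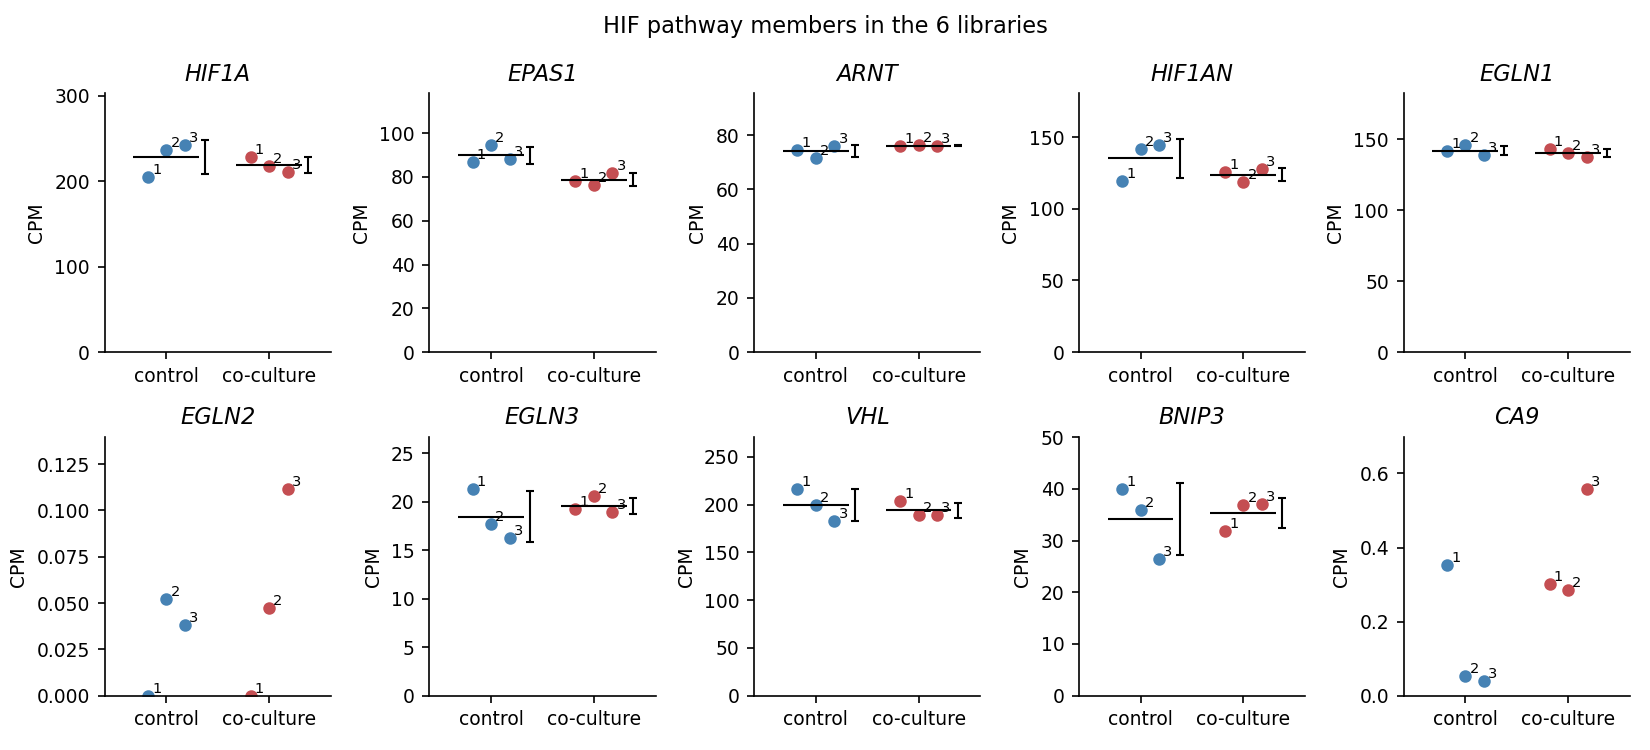
CPM of each of the 10 genes (vertical axes from 0, scaled per panel) in the 3 control libraries (blue) and the 3 co-culture libraries (red). Numbers are replicate numbers, lines are means and bars beside them are SDs, drawn for the 8 tested genes. The groups overlap in every panel but that of EPAS1, and EGLN2 and CA9 lie under 1 CPM.

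HIF1A encodes the alpha subunit of HIF-1, made continuously and destroyed in oxygenated cells. It stood at 229, 218 and 210 CPM in co-culture libraries 1, 2 and 3 and at 205, 237 and 242 CPM in controls 1, 2 and 3. The lowest and the highest value were both controls. The log2 fold change was -0.06 (SE 0.07, 95% interval -0.22 to 0.10, edgeR adjusted p 0.667), which allows a change from -14.1% to 7.30%. In the fit with a strand-class term it was 0.00 (edgeR adjusted p 0.991). HIF1A overlaps the antisense gene HIF1A-AS2, so strand mattered for its count. Without regard to strand its reads were 25.8% fewer, because reads in the shared stretch are then set aside as ambiguous, and the forward column of HIF1A-AS2 held 8505 reads over the 6 libraries. On its own strand HIF1A-AS2 had 20, 7 and 12 reads in co-culture and 18, 32 and 39 in the controls. These are too few to be told apart from HIF1A reads assigned to the wrong strand.

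EPAS1 encodes HIF-2 alpha, the other main alpha subunit. Its level was 78.1, 76.2 and 81.8 CPM in co-culture and 87.0, 94.5 and 88.0 CPM in the controls. Every co-culture library lay below every control. The log2 fold change was -0.19 (SE 0.06, 95% interval -0.32 to -0.05), a difference of -12.3%, with an unadjusted p of 0.0105 and an edgeR adjusted p of 0.0997 that missed the threshold. The difference passed without control 1 (-0.21, edgeR adjusted p 0.0141) and with total counts in place of TMM (-0.22, 0.0495), and over the 14 other settings the adjusted p ran from 0.0141 to 0.436. The highest came in the fit with a strand-class term, where the log2 fold change was -0.20. Over all genes, 1511 of 14734 were called lower without control 1 and 572 with total counts, beside 316 of 14582 with all 6 libraries and TMM.

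ARNT encodes the beta subunit that both alpha subunits need to bind DNA. It was the steadiest member in co-culture, at 76.1, 76.3 and 75.9 CPM, beside 74.6, 71.8 and 76.2 CPM in the controls. The ranges overlapped, and the log2 fold change was 0.04 (SE 0.06, 95% interval -0.09 to 0.16, edgeR adjusted p 0.745).

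Among the hydroxylases, EGLN1 encodes PHD2, regarded as the main oxygen sensor for HIF-1. It stood at 143, 141 and 137 CPM in co-culture and at 141, 146 and 139 CPM in the controls, with overlapping groups. Its log2 fold change of -0.02 had the smallest SE of the members, 0.055, and a 95% interval from -0.14 to 0.10 (edgeR adjusted p 0.880), and it was 0.01 with the strand-class term (edgeR adjusted p 0.972). EGLN3 encodes PHD3, the form most strongly induced by hypoxia in many cells. It was lower, at 19.3, 20.5 and 18.9 CPM in co-culture and 21.3, 17.7 and 16.2 CPM in the controls. Control 1 was the highest library and control 3 the lowest. The log2 fold change was 0.09 (SE 0.11, 95% interval -0.15 to 0.32, edgeR adjusted p 0.656), and it was 0.21 without control 1 and 0.00 without control 3 (edgeR adjusted p 0.103 and 0.999).

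EGLN2, which encodes PHD1, could not be measured. The 6 libraries held 0, 1 and 4 reads in co-culture and 0, 1 and 1 in the controls. A count of 0 allows up to 3 reads, or 0.150 and 0.152 CPM in the libraries concerned, for counting error only. The files also list the readthrough gene RAB4B-EGLN2, whose span in RefSeq (GRCh38.p14) contains both RAB4B and EGLN2. RAB4B and RAB4B-EGLN2 had 0 reads in all 6 libraries. STAR counts a read for a gene only when it overlaps no other gene on that strand, so the near-absence of reads on EGLN2 is no statement about its expression.

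HIF1AN encodes factor inhibiting HIF, the asparaginyl hydroxylase. It stood at 125, 119 and 128 CPM in co-culture and at 119, 142 and 144 CPM in the controls. Control 1 lay within the co-culture range, and controls 2 and 3 lay above it. The log2 fold change was -0.13 (SE 0.08, 95% interval -0.29 to 0.04, edgeR adjusted p 0.349). Without control 1 it was -0.21 with an edgeR adjusted p of 0.00902, the only 1 of 14 other settings in which HIF1AN passed. In that fit 1511 of all 14734 tested genes were called lower, beside 316 of 14582 with all 6 libraries. With a strand-class term HIF1AN was at -0.11 (edgeR adjusted p 0.745).

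VHL encodes the part of the ubiquitin ligase that recognises hydroxylated HIF. It was at 203, 189 and 190 CPM in co-culture and at 217, 200 and 183 CPM in the controls. The highest and the lowest library were again controls 1 and 3. The log2 fold change was -0.04 (SE 0.07, 95% interval -0.20 to 0.11, edgeR adjusted p 0.762), and 0.03 once strand class was a term (edgeR adjusted p 0.947).

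Levels of different genes were compared per kilobase of the longest transcript in GENCODE release 29, as means over the 6 libraries. HIF1A (56.5 CPM per kb) and VHL (52.7) were highest, and HIF1A exceeded VHL in 5 of 6 libraries with overlapping ranges. EGLN1 followed at 19.9, EPAS1 at 16.3 and ARNT at 15.4 CPM per kb, and EPAS1 exceeded ARNT in 4 of 6 libraries. BNIP3 (11.3) and HIF1AN (9.95) overlapped too, and EGLN3 was lowest at 6.67 CPM per kb. The ranges did not overlap between VHL and EGLN1, between EGLN1 and EPAS1, between ARNT and BNIP3, or between HIF1AN and EGLN3. Each level was divided by the gene's longest transcript, from 2849 bases for EGLN3 to 13011 bases for HIF1AN. The order therefore depends on which transcripts these cells use, also where the ranges did not overlap.

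BNIP3 encodes a mitophagy receptor of the outer mitochondrial membrane, and CA9 a membrane carbonic anhydrase that takes part in pH control. Both are widely used as reporters of HIF activity, and EGLN1 and EGLN3 are HIF targets as well, so the 250 bases before their transcription starts are shown to give the sequence context of the members that HIF can raise. Sequences are from RefSeq (GRCh38.p14, a later build than the one named for the files), 5′ to 3′ on the gene's strand, and 9 of the 10 members were in the table. Capitals mark ACGTG and GCGTG, the core letters of the hypoxia response element, searched on both strands, so that a match on the other strand reads CACGT or CACGC.
BNIP3 (chr10:131981924-131982173, minus strand): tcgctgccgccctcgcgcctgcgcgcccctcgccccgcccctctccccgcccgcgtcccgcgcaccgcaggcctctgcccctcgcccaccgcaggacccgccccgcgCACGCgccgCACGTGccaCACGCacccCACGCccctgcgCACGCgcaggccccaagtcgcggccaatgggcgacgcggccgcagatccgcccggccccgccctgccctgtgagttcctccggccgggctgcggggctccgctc
CA9 (chr9:35673678-35673927, plus strand): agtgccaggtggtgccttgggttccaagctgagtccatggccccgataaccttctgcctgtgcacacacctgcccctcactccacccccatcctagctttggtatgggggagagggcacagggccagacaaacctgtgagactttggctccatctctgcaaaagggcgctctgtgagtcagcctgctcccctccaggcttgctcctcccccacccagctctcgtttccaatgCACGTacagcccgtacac
EGLN1 (chr1:231422288-231422537, minus strand): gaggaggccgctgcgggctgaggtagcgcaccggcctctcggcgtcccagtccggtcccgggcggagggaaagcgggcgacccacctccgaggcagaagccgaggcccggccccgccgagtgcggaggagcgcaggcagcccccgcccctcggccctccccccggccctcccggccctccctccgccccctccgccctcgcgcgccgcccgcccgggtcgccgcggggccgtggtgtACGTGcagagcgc
EGLN3 (chr14:33951075-33951324, minus strand): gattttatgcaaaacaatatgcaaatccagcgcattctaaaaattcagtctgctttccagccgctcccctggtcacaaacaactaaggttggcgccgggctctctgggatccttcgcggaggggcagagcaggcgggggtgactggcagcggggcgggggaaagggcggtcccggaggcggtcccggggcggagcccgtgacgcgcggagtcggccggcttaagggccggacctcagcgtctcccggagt
The window of BNIP3 held 6 matches, of which 2 overlap in the letters CACGTG, CA9 and EGLN1 held 1 each and EGLN3 held 0. EPAS1 and HIF1A had a match as well, and so did EGLN2. Of 35116 promoter windows of this length, 18.5% held ACGTG, 32.2% held GCGTG and 43.2% held at least 1 of them. A match describes letters and not a bound site.

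BNIP3, with the most matches, did not pass the test. It stood at 31.9, 36.9 and 37.1 CPM in co-culture and at 40.0, 35.9 and 26.4 CPM in the controls. Control 1 was the highest of the 6 libraries and control 3 the lowest. The log2 fold change was 0.06 (SE 0.14, 95% interval -0.25 to 0.36, edgeR adjusted p 0.838), which allows a change from -15.9% to 28.7%. Its sign depended on single libraries. It was 0.19 without control 1 and -0.10 without control 3, and in the fit with a strand-class term it was -0.09 (edgeR adjusted p 0.356, 0.552 and 0.890).

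CA9 was barely detected. It had 6, 6 and 20 reads in co-culture, or 0.300, 0.285 and 0.559 CPM, and 7, 1 and 1 reads in the controls, or 0.354, 0.0522 and 0.0384 CPM. The groups overlapped, because control 1 exceeded co-culture libraries 1 and 2. Exact Poisson 95% intervals, which cover counting error only, ran from 0.341 to 0.863 CPM in co-culture library 3, from 0.142 to 0.729 CPM in control 1 and from 0.000971 to 0.214 CPM in control 3. CA9 was removed with other low-count genes before the test. In a fit without that filter its log2 fold change was 1.50 (SE 0.67), with an unadjusted p of 0.0377 and an edgeR adjusted p of 0.228.

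**Figure D2:**
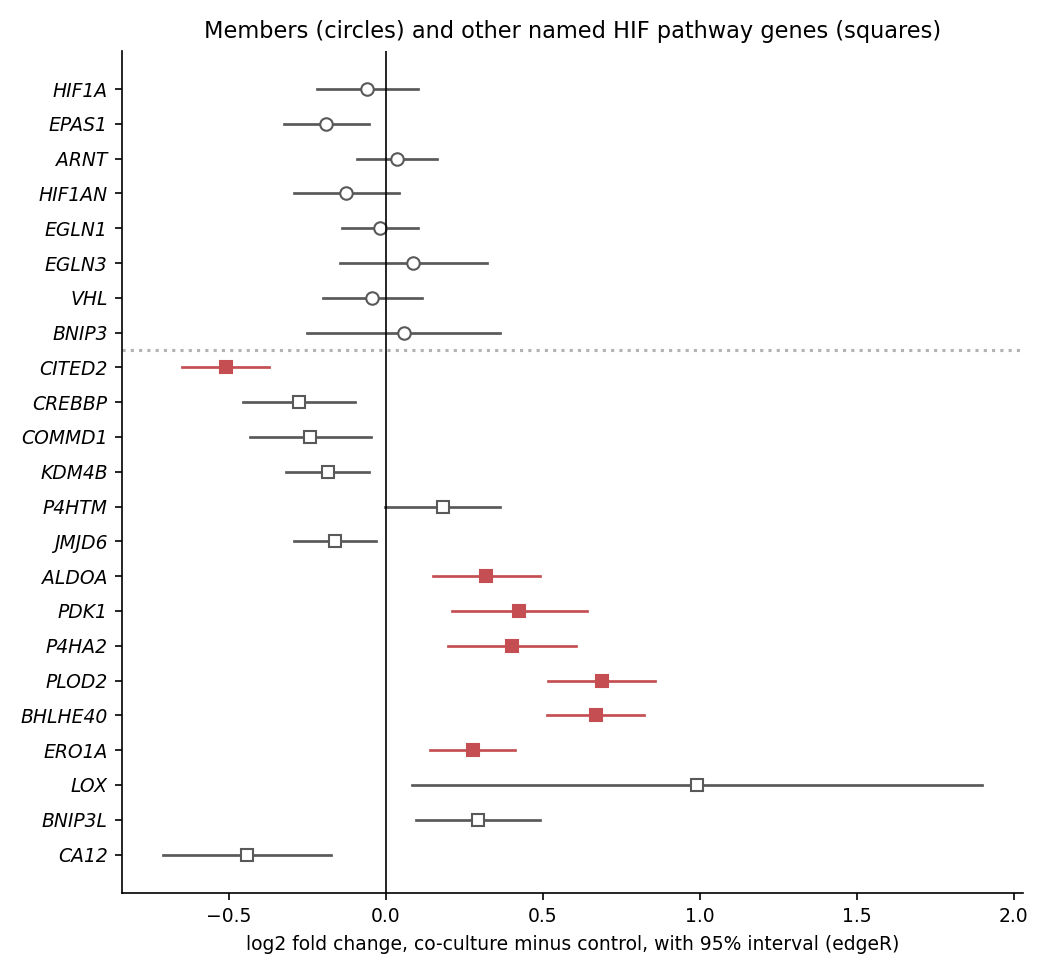
Log2 fold change of co-culture minus control (horizontal axis) with its 95% interval for the 8 tested members (circles, above the dotted line) and the other named genes of the HIF pathway (squares). Red filled symbols have an edgeR adjusted p under 0.05: CITED2 was lower and ALDOA, PDK1, P4HA2, PLOD2, BHLHE40 and ERO1A were higher, and the members' points lie between -0.19 and 0.09.

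BNIP3L and CA12, relatives of the 2 target members, had differences of opposite sign, and neither passed the test. BNIP3L, which encodes the mitophagy receptor NIX, stood at 118, 115 and 118 CPM in co-culture and at 110, 95.1 and 82.3 CPM in the controls. The groups did not overlap, and its log2 fold change was 0.29 (SE 0.09, edgeR adjusted p 0.0844). It passed without control 1, at 0.40 (edgeR adjusted p 0.000158), and in DESeq2, at 0.29 (adjusted p 0.0402). CA12, another membrane carbonic anhydrase, stood at 17.8, 17.6 and 18.3 CPM in co-culture, below the 29.4, 23.2 and 20.5 CPM of the controls. Its log2 fold change was -0.44 (SE 0.12, edgeR adjusted p 0.0620). CA12 passed in 4 of 14 other settings, which were those without control 1 (-0.28, edgeR adjusted p 0.0256), without control 3 (-0.56, 0.0121), without a filter on low counts (-0.44, 0.0349) and in DESeq2 (-0.44, 0.0244). With a strand-class term BNIP3L was at 0.31 and CA12 at -0.45 (edgeR adjusted p 0.399 and 0.381). Without control 1, 1558 of all 14734 tested genes were called higher and 1511 lower, and DESeq2 called 577 and 455.

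Among partners and regulators of HIF, CITED2 alone passed the test. The list of 18 such genes held 17 that were tested, of which 0 rose and 1 fell, beside 2.66% higher and 2.17% lower among all tested genes. Its median log2 fold change was -0.08. CITED2 encodes a HIF-inducible protein that competes with the alpha subunit for the coactivators CREBBP and EP300. It stood at 88.4, 89.5 and 81.5 CPM in co-culture and at 126, 127 and 116 CPM in the controls, with no overlap. Its log2 fold change was -0.51 (SE 0.06, edgeR adjusted p 0.00235), and the call held in 13 of 14 other settings. The call was lost in the fit with a strand-class term (-0.48, SE 0.10, edgeR adjusted p 0.142). That fit called 4 of all tested genes lower. For the coactivator gene CREBBP the difference was -0.28 on this scale (SE 0.08, adjusted p 0.0749 in edgeR). For COMMD1, whose product promotes HIF1A breakdown, it was -0.24 (SE 0.09, adjusted p 0.133 in edgeR). Without control 1 these were -0.36 and -0.27 (edgeR adjusted p 0.000237 and 0.0396), and 1511 of all 14734 tested genes were called lower. CREBBP also passed with total counts (-0.31, edgeR adjusted p 0.0351) and in DESeq2 (-0.28, adjusted p 0.0272). Over all tested genes those 2 settings called 572 and 455 lower. With a strand-class term CREBBP was at -0.29 and COMMD1 at -0.24 (edgeR adjusted p 0.394 and 0.504). The ligase partners of VHL, ELOB, ELOC, CUL2 and RBX1, were not called. HIF3A, the third alpha subunit, was listed at 0.150 CPM or less in every library.

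No gene passed among the other oxygen-sensitive dioxygenases. Of 8 tested genes, including ADO, KDM5A and KDM6A, 0 rose and 0 fell, with 2 at an unadjusted p under 0.05, beside 23.2% of all tested genes, and a median log2 fold change of -0.03. limma-voom and DESeq2 also called 0. The largest differences were those of the histone demethylase gene KDM4B (-0.19, edgeR adjusted p 0.100), the transmembrane prolyl hydroxylase gene P4HTM (0.18, 0.221) and the JmjC enzyme gene JMJD6 (-0.16, 0.133).

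HIF target genes other than the members stood higher in co-culture as a group, with a large spread among the controls. Of 49 listed genes 45 were tested, of which 6 rose and 1 fell, beside 2.66% and 2.17% of all tested genes. The 1 that fell was CITED2, counted among the partners and regulators too, and KDM3A stands both here and among the dioxygenases. The list was drawn up with a higher level of hypoxia genes in these libraries already known, so its direction is no independent evidence. Its median log2 fold change was 0.21, and 36 of 45 genes had a positive value, against 49.6% of all tested genes. In 23 genes every co-culture library was above every control, and in 3 below, where 14.3% and 15% of all tested genes were so. All 14 genes of glucose transport and glycolysis had positive values, with a median of 0.31, and so did all 4 matrix genes, with a median of 0.55. Values were positive in 8 of 12 genes of transcription and signalling (median 0.16), in 3 of 4 vascular and secreted factors (0.14), in 2 of 4 mitochondrial genes (0.00) and in 4 of 5 others (0.23), besides the positive BNIP3L and the negative CA12.

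The genes that rose included 2 enzymes of collagen modification. PLOD2, a lysyl hydroxylase gene, rose from 160, 147 and 131 CPM in the controls to 245, 237 and 223 CPM, a difference of 0.69 on the log2 scale (SE 0.08, adjusted p 0.00143 in edgeR). P4HA2, a subunit of collagen prolyl hydroxylase, rose by 0.40 on that scale (SE 0.09, edgeR adjusted p 0.0359). BHLHE40, a transcriptional repressor, rose from 83.3, 74.4 and 72.0 CPM to 128, 116 and 122 CPM (0.67, SE 0.07, edgeR adjusted p 0.00105). PDK1, which inhibits pyruvate dehydrogenase, the glycolytic enzyme gene ALDOA and the oxidoreductase gene ERO1A rose by 0.43, 0.32 and 0.28 (edgeR adjusted p 0.0345, 0.0417 and 0.0314). PLOD2 and BHLHE40 kept their calls in all 14 other settings, with highest adjusted p-values of 0.0404 and 0.0356. P4HA2, PDK1 and ERO1A each lost theirs in 7 settings and ALDOA in 8. With a strand-class term P4HA2, PDK1, ERO1A and ALDOA were at 0.36, 0.48, 0.30 and 0.27 and none of the 4 passed (edgeR adjusted p 0.337, 0.263, 0.279 and 0.384). That fit called 25 of all tested genes higher. LOX, a collagen cross-linking enzyme, had the largest difference of the target genes at 5 CPM or more, 0.99 (SE 0.36), but its controls stood at 54.2, 27.4 and 21.2 CPM beside 67.4, 67.6 and 68.1 CPM, and it did not pass (edgeR adjusted p 0.186).

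The controls were not alike in these genes, nor over all tested genes. In a principal component analysis of all tested genes, which finds the main axes of variation, the second axis held 30.6% of the variance. Controls 1, 2 and 3 lay at -27.4, 9.55 and 20.3 on that axis, and co-culture libraries 1, 2 and 3 at 0.492, -1.64 and -1.29. The median of the 45 target genes, as log2 CPM minus each gene's mean over the 6 libraries, was 0.12, 0.12 and 0.16 in co-culture libraries 1, 2 and 3 and 0.06, -0.17 and -0.29 in controls 1, 2 and 3. Control 3 was the lowest control in 36 of 45 target genes, beside 32.1% of all tested genes. Control 1 lay below all co-culture libraries in 23 of the 45 target genes, control 2 in 34 and control 3 in 36, where 37.5%, 34.8% and 34.8% of all tested genes were so. Of the 8 tested members, control 3 was the lowest control in 4 and control 1 in 3, beside 32.1% and 42.9% of all tested genes. BNIP3, EGLN3 and VHL had their highest control value in control 1 and their lowest in control 3, and HIF1A and HIF1AN had the reverse order. The share of all tested genes with either order was not counted. The part of control 1 and control 3 in these results was measured by leaving each out. The number of target genes that rose was 30 without control 1, where 10.6% of all genes tested in that fit rose. It was 6 without control 3 (median 0.18, beside 2.74% of all genes tested) and 2 without control 2 (beside 0.325%), and it was also 2 without any 1 of the co-culture libraries. In the fit with a strand-class term it was 2, with a median of 0.20, beside 0.171% of all tested genes. What set the controls apart was not tested.

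**Figure D3:**
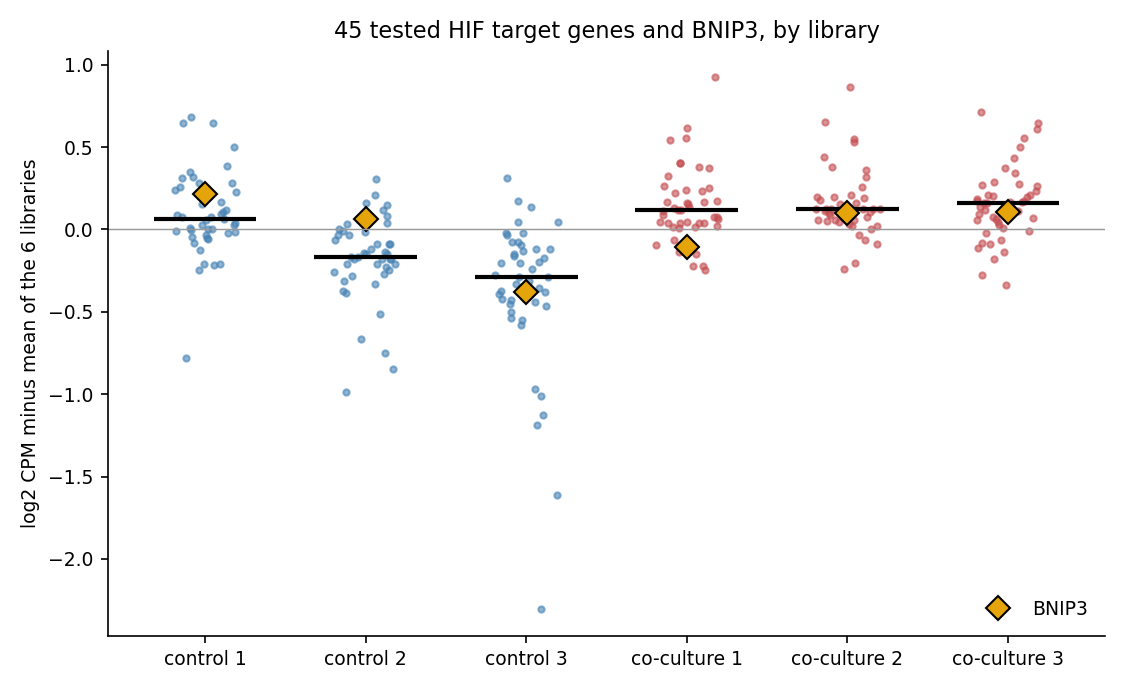
Log2 CPM minus the mean of the 6 libraries (vertical axis) for the 45 tested HIF target genes (points) in each control (blue) and co-culture (red) library. Black lines are medians, from -0.29 in control 3 to 0.16 in co-culture library 3, and diamonds are BNIP3, which is highest in control 1 and lowest in control 3.

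**Figure D4:**
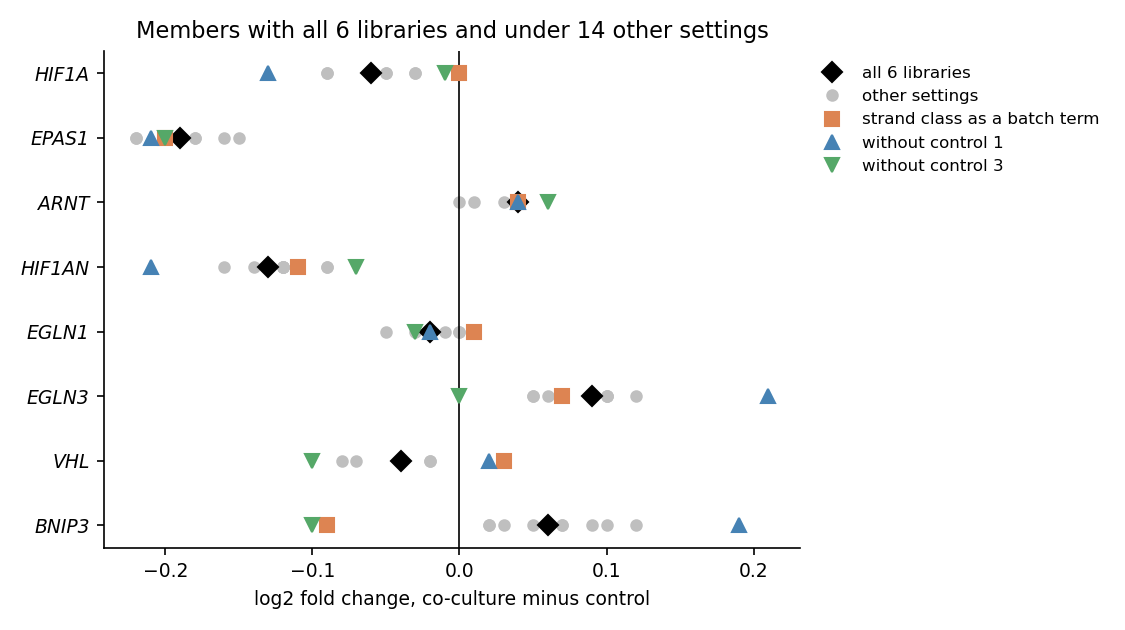
Log2 fold change of the 8 tested members (horizontal axis, 0 marked by a line) with all 6 libraries (black diamonds) and under the 14 other settings. EPAS1 and HIF1AN stay negative in all of them, and BNIP3 runs from -0.10 without control 3 to 0.19 without control 1.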

How the data were processed

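The authors deposited raw read counts per gene for each of 6 libraries, in 3 columns (without regard to strand, forward strand and reverse strand). The submitters' processing notes name STAR 2.53a, FastQC and the build hg18, and the annotation is not given in the sources used here. A stranded mRNA kit was used, per the labels' protocols. Reverse-strand counts were used, and the 4 summary lines were left out of library sizes. These lines hold unmapped, multimapping (6.48% to 8.42%), geneless (14.8% to 17.7%) and ambiguous reads (0.835% to 1.01%). A single read was worth 0.0279 to 0.0522 CPM.

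The 3 co-culture and 3 control libraries were compared with edgeR 4.0.16 under R 4.3.3, fitting the group alone, filterByExpr at a minimum count of 10, TMM scaling, robust quasi-likelihood F tests and Benjamini-Hochberg adjustment over 14582 tested genes at 0.05. SEs are the log2 fold change over the root of F, and 95% intervals use the t distribution of the fit. On simulated data 93.5% of 200 genes changed by 2-fold were called, and 10.1% of the 208 calls were false, above the 0.05 aimed at. The simulation held no strand class and no shared difference among the controls. Changes smaller than 2-fold, such as those of the members, were not simulated, so these shares do not apply to them. Libraries of a group differed by a chi-square per degree of freedom of 4.73 to 18.5, so each was counted once. Symbols of 4 listed genes (ELOB, ELOC, RACK1, ERO1A) were matched through RefSeq synonyms.

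The members, the lists and the settings, the strand class among them, were chosen with earlier results of these data known. Named genes are the 10 members, every list gene past the threshold, the 3 largest absolute differences per list at a mean of at least 5 CPM, BNIP3L and CA12. The alternatives were DESeq2 1.42.0, limma-voom (limma 3.58.1), other scalings, no filter, unstranded counts, a replicate block, a batch term for strand class (below or above 0.5% forward reads), and leaving out each library.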

Additional observations from a re-analysis of the deposited data

How the results depend on the processing

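The 8 tested members kept 0 calls in either direction in all but 2 of 14 other settings. With total counts 1 was lower (EPAS1, -0.22), and leaving out 1 library gave 0 to 2 lower members. The 2 were EPAS1 and HIF1AN without control 1, where 1511 of all 14734 tested genes were called lower. EPAS1 ran from -0.22 to -0.15 and HIF1AN from -0.21 to -0.07 in the 6 fits that left out a library. Log2 fold changes near 0 changed sign. In the fit with a strand-class term HIF1A was 0.00, EGLN1 0.01, VHL 0.03 and BNIP3 -0.09. On leaving out a library EGLN1 ran from -0.03 to 0.00, VHL from -0.10 to 0.02 and BNIP3 from -0.10 to 0.19.

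Called HIF targets numbered 3 higher and 2 lower with total counts, 13 and 2 with DESeq2, 2 higher with the replicate block, 2 and 0 with the strand class, and 2 lower without a filter on low counts. Leaving out a library gave 2 to 30 higher and 1 to 4 lower. Partners and regulators had 2 lower with total counts, 2 with DESeq2, 0 with the strand class, and 1 to 4 on leaving out a library, where their median ran from -0.14 to -0.06. The other dioxygenases had a median of -0.06 with total counts, 0.01 with the strand class and -0.07 to -0.01 on leaving out a library, with 0 to 1 called in each direction. Over all genes 388 were higher and 316 lower. There were 310 higher and 572 lower with total counts, 577 and 455 with DESeq2, and 474 and 390 without a filter on low counts. The counts were 110 and 54 with the replicate block and 25 and 4 with the strand class. On leaving out a library 48 to 1558 were higher and 15 to 1511 lower, the highest without control 1 and the lowest higher count without control 2. The cause of these differences was not tested. Fits that leave out a library also hold fewer samples. Replicate numbers showed no pairing of the samples, though with 3 libraries per group a pairing could be missed. The deviations of same-numbered libraries correlated at -0.042, -0.085 and -0.0915 across genes, and no library correlated best with its own number.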

Other observations

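Some HIF target genes, chosen after their values were seen, had a wide spread among the controls. NDRG1, a stress-induced gene, stood at 102, 41.0 and 28.5 CPM in controls 1, 2 and 3 and at 84.3, 81.0 and 92.0 CPM in co-culture libraries 1, 2 and 3 (log2 fold change 0.60, SE 0.53, edgeR adjusted p 0.567). The groups overlapped in this gene. ANKRD37 stood at 3.54, 1.20 and 0.384 CPM in the controls and at 4.30, 4.13 and 3.72 CPM in co-culture (log2 fold change 1.29, SE 0.60, edgeR adjusted p 0.252). MIR210HG, the host transcript of the hypoxia-induced miR-210, stood at 3.64, 2.77 and 1.07 CPM in the controls and at 5.10, 5.46 and 5.45 CPM in co-culture (log2 fold change 1.13, SE 0.33, edgeR adjusted p 0.0809). Every co-culture library was above every control in ANKRD37 and MIR210HG. In each of the 3 genes control 1 was the highest control and control 3 the lowest. As they were picked by their values, this shared order is no separate evidence. Among the members BNIP3, EGLN3 and VHL had that order, and HIF1A and HIF1AN had the reverse.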
